A study of Homo sapiens with 18 samples.

Results

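Expression of the glycolytic pathway and of the response to low oxygen was examined across 3 pairs of ovarian cancer cell lines, each a platinum-sensitive line and a resistant counterpart. The gene set was drawn up by name, with earlier results of these data known. It listed 37 genes, of which 35 had a row among the 12853 genes of the deposited RNA-seq table, while CA9 and ANKRD37 were not in it. The 35 comprised 4 glucose and lactate transporters, 9 enzymes of upper glycolysis (HK1, HK2, GPI, PFKL, PFKM, PFKP, ALDOA, ALDOC and TPI1), 8 of lower glycolysis (GAPDH, PGK1, PGAM1, ENO1, ENO2, PKM, LDHA and LDHB), 4 regulators of flux, 6 genes known to be induced by hypoxia, 2 oxygen sensors and 2 alpha subunits of the hypoxia-inducible factor (HIF).

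RNA was sequenced from 18 rRNA-depleted libraries, 3 from each of 6 lines. A2780 (sensitive) and CP70 (resistant), called endometrial or ovarian cancer cells in the labels, formed the A2780 pair, and CP70 was derived from A2780 in culture. PEA1 (sensitive) and PEA2 (resistant) formed the PEA pair and came from the ascites of 1 patient, before platinum chemotherapy and at resistant relapse. PEO1 (sensitive) and PEO4 (resistant) formed the PEO pair and came from 1 patient who had received platinum, before and after resistance was seen clinically. All 6 lines were grown in the same RPMI medium with glutamine and fetal bovine serum, and no drug, oxygen level or glucose level is given for these libraries in the sources used here. Each state is represented by a single line per pair, so a difference within a pair compares 2 lines.

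As background, glycolysis splits glucose into pyruvate in a chain of cytosolic reactions. Most steps are served by several isozymes that differ between tissues, and tumor cells often run the chain at a high rate and export the end product as lactate. HIF-1α and HIF-2α (the products of HIF1A and EPAS1) are marked for destruction in the presence of oxygen by the prolyl hydroxylases EGLN1 and EGLN3. When oxygen is short they pair with ARNT and bind short DNA elements built around the letters ACGTG or GCGTG, which raises transcription of many glycolytic genes and of genes for blood vessel growth, pH control and mitophagy. Their control is mostly of protein stability, so an mRNA level is not a measure of HIF activity.

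Promoter sequence is shown for the 3 genes that were higher in the resistant line of every pair (ALDOA, BNIP3 and ANGPTL4) and for 2 genes whose direction differed between pairs (ENO2 and PDK3), each around a match to ACGTG. Sequences are from the RefSeq promoter table, which is of build GRCh38.p14, and were placed on GRCh37 by exact match. They run 5′ to 3′ on the strand of the gene, with the motif in capitals, where CACGT is ACGTG read on the opposite strand.
ALDOA (chr16:30075394-30075454, plus strand): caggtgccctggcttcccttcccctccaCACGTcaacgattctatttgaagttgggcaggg
BNIP3 (chr10:133795528-133795588, minus strand): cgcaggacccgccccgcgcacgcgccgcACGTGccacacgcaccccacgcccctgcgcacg
ANGPTL4 (chr19:8428789-8428837, plus strand): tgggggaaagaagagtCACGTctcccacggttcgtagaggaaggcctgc
ENO2 (chr12:7023598-7023658, plus strand): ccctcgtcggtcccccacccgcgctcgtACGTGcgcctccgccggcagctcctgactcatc
PDK3 (chrX:24483314-24483374, plus strand): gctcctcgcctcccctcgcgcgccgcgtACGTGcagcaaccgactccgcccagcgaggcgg

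The middle of the motif lay 176 bases before the RefSeq start of ALDOA, 131 before that of BNIP3, 232 before that of ANGPTL4, 116 before that of ENO2 and 59 before that of PDK3. The BNIP3 match was also part of the E-box CACGTG, which other factors recognise. Of the 35 genes, 32 had an entry in the table, and SLC2A3, SLC16A1 and VEGFA had none. The 250 bases before the start held ACGTG on either strand in 12 of the 32 (37.5%), against 23.9% of 8983 promoters of genes in the expression table and 18.7% of all 27305 promoters. GCGTG was present in 14 (43.8%), against 45.9% and 31.9%. Either word was present in 21 (65.6%), against 58.0% and 43.1%. The 12 genes with ACGTG were HK2, GPI, ALDOA, ALDOC, GAPDH, PGK1, ENO2, LDHA, PDK3, BNIP3, ANGPTL4 and EGLN1. These are matches of letters in a fixed window and not measured binding sites.

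Between 1344098 and 7067336 reads per library fell on the genes of the table, lowest in the PEA1 libraries (at most 1670866), and whole reads could be recovered from the deposited values. At 3 reads, the smallest count treated as detection here, the level was 0.452 to 2.18 CPM depending on the library, and 29 of the 35 genes exceeded 3 reads in all 18 libraries. As a check of the labelled tissue, none of 9 epithelial and ovarian carcinoma markers (EPCAM, CDH1, KRT8, KRT18, KRT19, PAX8, WT1, MUC16 and MSLN) exceeded 3 reads in all A2780 libraries, whose summed marker level was 2.24 to 3.13 CPM. In CP70 (90.1 to 96.5 CPM) there were 3 such markers, in PEA1 (431 to 588 CPM) 5, and in PEA2 (3142 to 3449 CPM), PEO1 and PEO4 all 9. The leukocyte marker PTPRC (20.1 to 25.1 CPM) and the endothelial marker CDH5 (25.3 to 36.1 CPM) exceeded 3 reads only in PEA2, where they were the sole genes of those lists in the table. The 4 fibroblast markers in the table summed to 7.22 to 15.7 CPM in A2780 and 67.8 to 76.3 in CP70, to 366 to 449 CPM in PEA1 and 3.45 to 6.40 in PEA2, and to 154 to 174 CPM in PEO1 and 164 to 171 in PEO4. These markers did not move together. The PEA1 sum was nearly all COL1A1 (616, 513 and 649 reads), and the PEO1 and PEO4 sums were mostly THY1. From A2780 to CP70, COL1A2, DCN and THY1 rose but COL1A1 did not (28, 13 and 22 reads against 32, 19 and 15). Marker levels thus moved with the comparisons in the A2780 and PEA pairs, and their part in the differences of those pairs was not tested.

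All but 2 of the 35 genes were called different between the lines of at least 1 pair. The share of all genes that meet this was not taken. Calls were frequent over all genes, with 32.5% higher and 29.4% lower in the PEA pair alone, so this count is not read as a trait of the set. ALDOA, BNIP3 and ANGPTL4 were higher in the resistant line of all 3 pairs. No gene of the set was lower in all 3. In 2 or more pairs, 10 genes were called in 1 direction only (18.9% of all genes), and 13 were higher in the resistant line of 1 pair and lower in that of another (27.5% of all genes). The aldolase gene ALDOC and the main enolase gene ENO1 were called in no pair by the main fit, though each gained a call in some alternative fits.

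A gene was called changed at an FDR below 0.05, where FDR is the Benjamini-Hochberg adjusted p-value of limma's moderated test over all 12853 genes, and log2FC is the mean log2 CPM of the resistant line minus that of the sensitive line. In the A2780 pair, 12 of the 35 genes were higher in CP70, 5 were lower and 18 were not called, while 22.2% of all genes were higher and 17.7% lower. In the PEA pair, 15 were higher in PEA2, 11 lower and 9 not called, against 32.5% and 29.4% of all genes. In the PEO pair, 16 were higher in PEO4, 6 lower and 13 not called, against 19.6% and 21.9%. With each library centred on its median, the split in the A2780 pair was 10 higher and 7 lower, and over all genes 2630 were higher and 2567 lower. Differences above 2 on the log2 scale were seen for 4 genes in the A2780 pair (SLC16A3, ENO2, PDK3 and EGLN3), 3 in the PEA pair (PFKP, CA12 and ANGPTL4) and 3 in the PEO pair (PFKFB4, VEGFA and EPAS1), against 9.06%, 14.1% and 6.22% of all genes. Over the 35 genes, log2FC had a median of 0.10 (A2780 pair), 0.19 (PEA pair) and 0.27 (PEO pair), beside medians over all genes of -0.02, 0.01 and -0.02. These medians are small and depend on single libraries and on scaling: the PEA value was 0.0938 without PEA2 replicate 2, 0.3251 without PEA2 replicate 1 and 0.0319 under quantile normalization, and the A2780 value was 0.0492 with centred libraries. In bulk RNA, fewer cells of a kind and less RNA per cell cannot be told apart. No source states that the replicates were separate cultures, so the p-values measure the spread between these libraries, which may be technical.

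**Figure D1:**
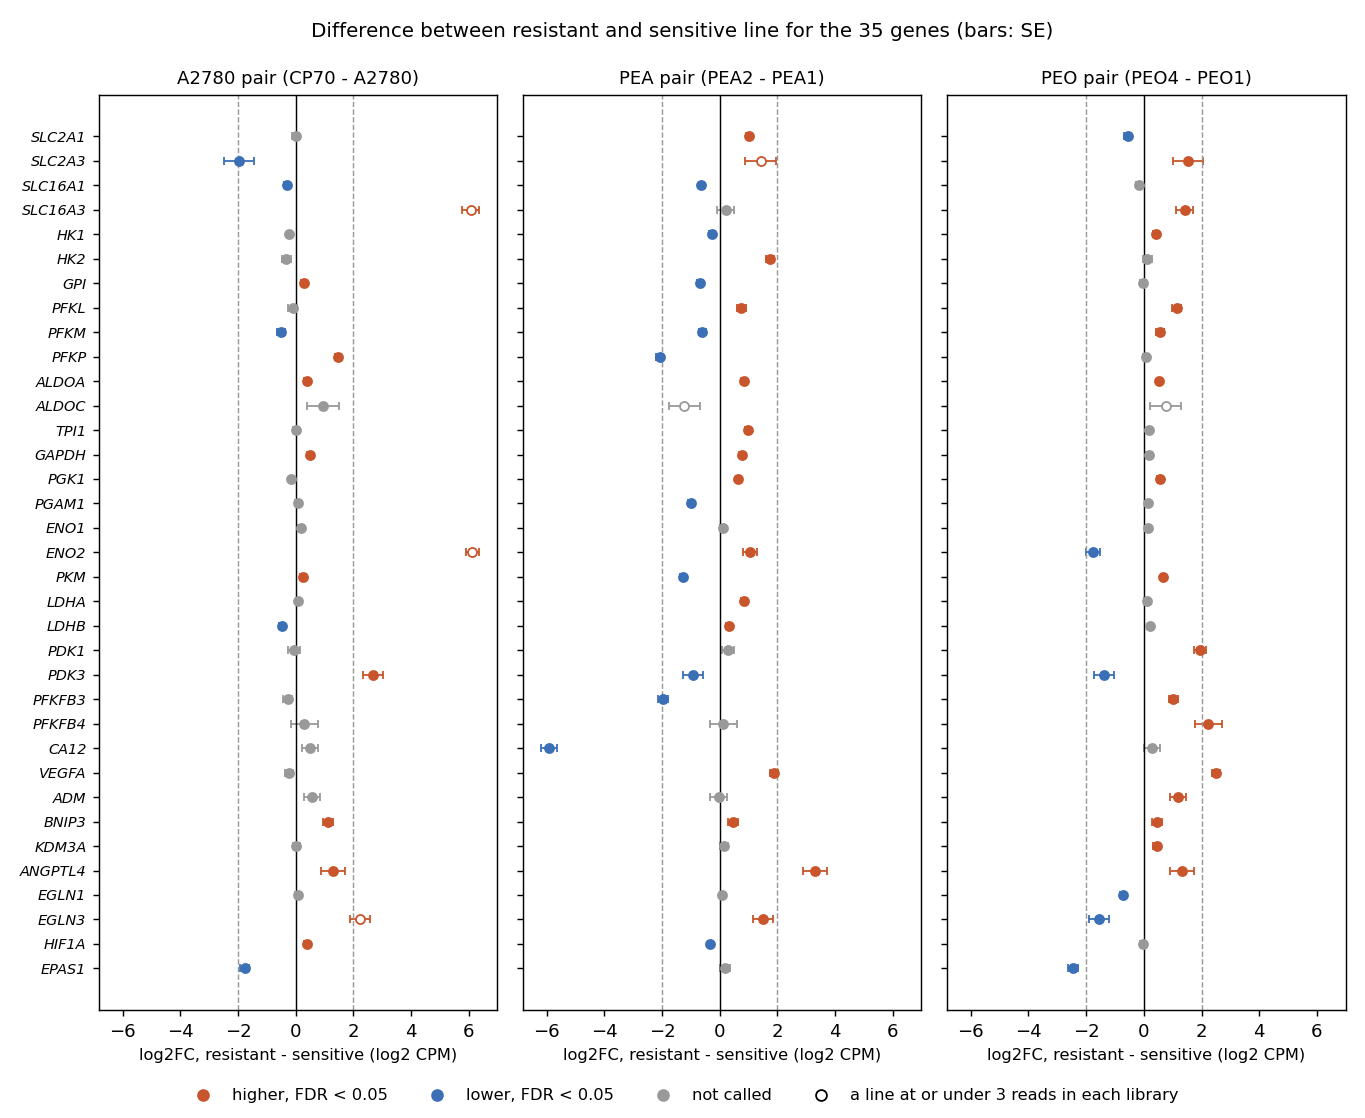
Difference in log2 CPM between the resistant and the sensitive line (x axis) for each of the 35 genes (y axis, ordered by role) in the 3 pairs, with bars for the SE of the limma fit and dashed lines at 2 and -2; open points have a line with at most 3 reads in each library. The points scatter to both sides of 0, with 12 higher and 5 lower in the A2780 pair, 15 and 11 in the PEA pair and 16 and 6 in the PEO pair.

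Higher expression in all 3 pairs was seen for 205 of all genes (1.59%) and lower expression in all 3 for 155 (1.21%), beside 3 and 0 of the 35; at an unadjusted p below 0.05 in limma the counts for the 35 were also 3 and 0. Of the 3 genes, ALDOA held this position in all 27 fits tried, ANGPTL4 in 22 and BNIP3 in 15. ANGPTL4 lost a call without A2780 replicate 2 (A2780 pair), without CP70 replicate 3 (A2780 pair), without PEO1 replicate 2 (PEO pair), without PEO4 replicate 2 (PEO pair) and under quantile normalization. BNIP3 lost its call in the PEA pair without PEA1 replicate 1, PEA1 replicate 3 or PEA2 replicate 1, in the PEO pair without any 1 PEO1 library, PEO4 replicate 2 or PEO4 replicate 3, and in 1 of these pairs in 4 fits on all libraries. In a model over all pairs, with pair and sensitivity as terms, 11 of the 35 were higher in the resistant lines (12.5% of all genes) and 2 were lower (11.6%). The 11 were ALDOA, ANGPTL4, GAPDH, BNIP3, VEGFA, SLC16A3, PFKL, LDHA, TPI1, PGK1 and PDK1, and the 2 were SLC16A1 and EPAS1. This model treats libraries of a line as independent, and the 3 lines of each state are the actual replicates of it: with 1 difference per pair, limma called none of the 35 and none of all genes, while 1 of the 35 and 395 of all genes had an unadjusted p below 0.05.

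The clearest shared difference was in ALDOA, the main aldolase, which splits fructose-1,6-bisphosphate into a pair of triose phosphates and here was among the most abundant mRNAs of the set. ALDOA measured 10.04, 9.86 and 9.99 log2 CPM in the A2780 libraries and 10.36, 10.33 and 10.35 in CP70. It measured 10.05, 9.90 and 9.83 in PEA1 and 10.75, 10.72 and 10.81 in PEA2. The PEO1 libraries had 9.92, 10.05 and 10.08 and the PEO4 libraries 10.48, 10.51 and 10.68. In each pair all 3 resistant libraries lay above all 3 sensitive ones. The log2FC was 0.38 ± 0.09 (SE) in the A2780 pair (FDR = 0.00179), 0.83 ± 0.09 in the PEA pair (FDR = 1.13e-07) and 0.54 ± 0.09 in the PEO pair (FDR = 5.98e-05), that is 1.30-fold, 1.78-fold and 1.45-fold.

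Among the transporters that bring glucose into the cell, SLC2A1 (GLUT1), the widespread basal carrier, and SLC2A3 (GLUT3), a high-affinity carrier typical of neurons, were high in different lines. SLC2A1 stood at 6.25, 6.26 and 5.80 log2 CPM in A2780 and 6.07, 6.09 and 6.13 in CP70. In the PEA pair it rose from 8.27, 8.27 and 8.30 in PEA1 to 9.28, 9.20 and 9.40 in PEA2 (log2FC 1.01 ± 0.12, FDR = 2.42e-07). In the PEO pair it fell from 8.13, 8.28 and 8.52 in PEO1 to 7.82, 7.62 and 7.82 in PEO4 (log2FC -0.56 ± 0.12, FDR = 5.86e-04). The lines did not overlap in the PEA and PEO pairs, and every PEA and PEO library was above every A2780 and CP70 library.

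SLC2A3 was highest in A2780 and CP70, where SLC2A1 was lowest. SLC2A3 stood at 7.16, 7.19 and 7.05 log2 CPM in A2780 and at 5.09, 5.16 and 5.24 in CP70, a log2FC of -1.97 ± 0.53 (FDR = 0.00502) with no overlap. PEA1 had 0 reads of SLC2A3 in each library, and PEA2 had 4, 4 and 0 reads (1.26, 0.37 and -2.13 log2 CPM). The call of a rise in the PEA pair (FDR = 0.0248) rests on those 8 reads, and the lines overlapped. It was lost without PEA1 replicate 3, without PEA2 replicate 1 and without PEA2 replicate 2. It was also lost with each pair fitted alone, with voom weights and with 2 reads added. In the PEO pair SLC2A3 rose from 2.24, 1.60 and 1.76 in PEO1 to 3.45, 3.48 and 3.25 in PEO4 (1.52 ± 0.53, FDR = 0.025), and its call was lost without PEO1 replicate 2, PEO1 replicate 3, PEO4 replicate 1 or PEO4 replicate 2, with FDR of at most 0.0791. Within a library, the log2 CPM of SLC2A3 minus that of SLC2A1 was 1.03 ± 0.19 (SD, n = 3) in A2780, -0.94 ± 0.05 in CP70, -6.44 ± 0.48 in PEO1 and -4.36 ± 0.21 in PEO4.

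SLC16A3 encodes MCT4, the carrier that exports lactate from highly glycolytic cells, and SLC16A1 encodes MCT1, which carries lactate in both directions. SLC16A3 lies at chr17:80175810-80219005 on GRCh37 and overlaps CSNK1D on the opposite strand; whether reads were counted by strand is not given in the sources used here. In A2780, SLC16A3 was barely detected, with 1, 2 and 2 reads (-1.25, -0.63 and 0.16 log2 CPM), while CP70 had 282, 199 and 157 reads (5.53, 5.56 and 5.37 log2 CPM). Summed over libraries, and scaled for library size, CP70 had 87.5 times the level of A2780, with a 95% counting interval of 37.3 to 270 times, and the fitted log2FC was 6.06 ± 0.30 (FDR = 1.46e-12). The groups did not overlap, and the size of the difference is imprecise because A2780 had so few reads.

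SLC16A3 was at 4.65, 4.44 and 4.08 log2 CPM in PEA1 and 4.20, 5.13 and 4.47 in PEA2, where the lines overlapped and no change was called (log2FC 0.21 ± 0.30, FDR = 0.56). It rose from 5.90, 6.01 and 6.80 in PEO1 to 7.62, 7.56 and 7.76 in PEO4, by 1.41 ± 0.30 (FDR = 7.28e-04), with PEO1 replicate 3 the closest to PEO4. SLC16A1 fell in CP70 (log2FC -0.31, FDR = 0.0066) and in PEA2 (log2FC -0.64, FDR = 1.99e-06), while in PEO4 it was not called (-0.18, FDR = 0.109). The log2 CPM of SLC16A3 minus that of SLC16A1 went from -9.34 ± 0.69 (SD, n = 3) in A2780 to -2.97 ± 0.14 in CP70, and from -1.70 ± 0.50 in PEO1 to -0.11 ± 0.14 in PEO4.

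**Figure D2:**
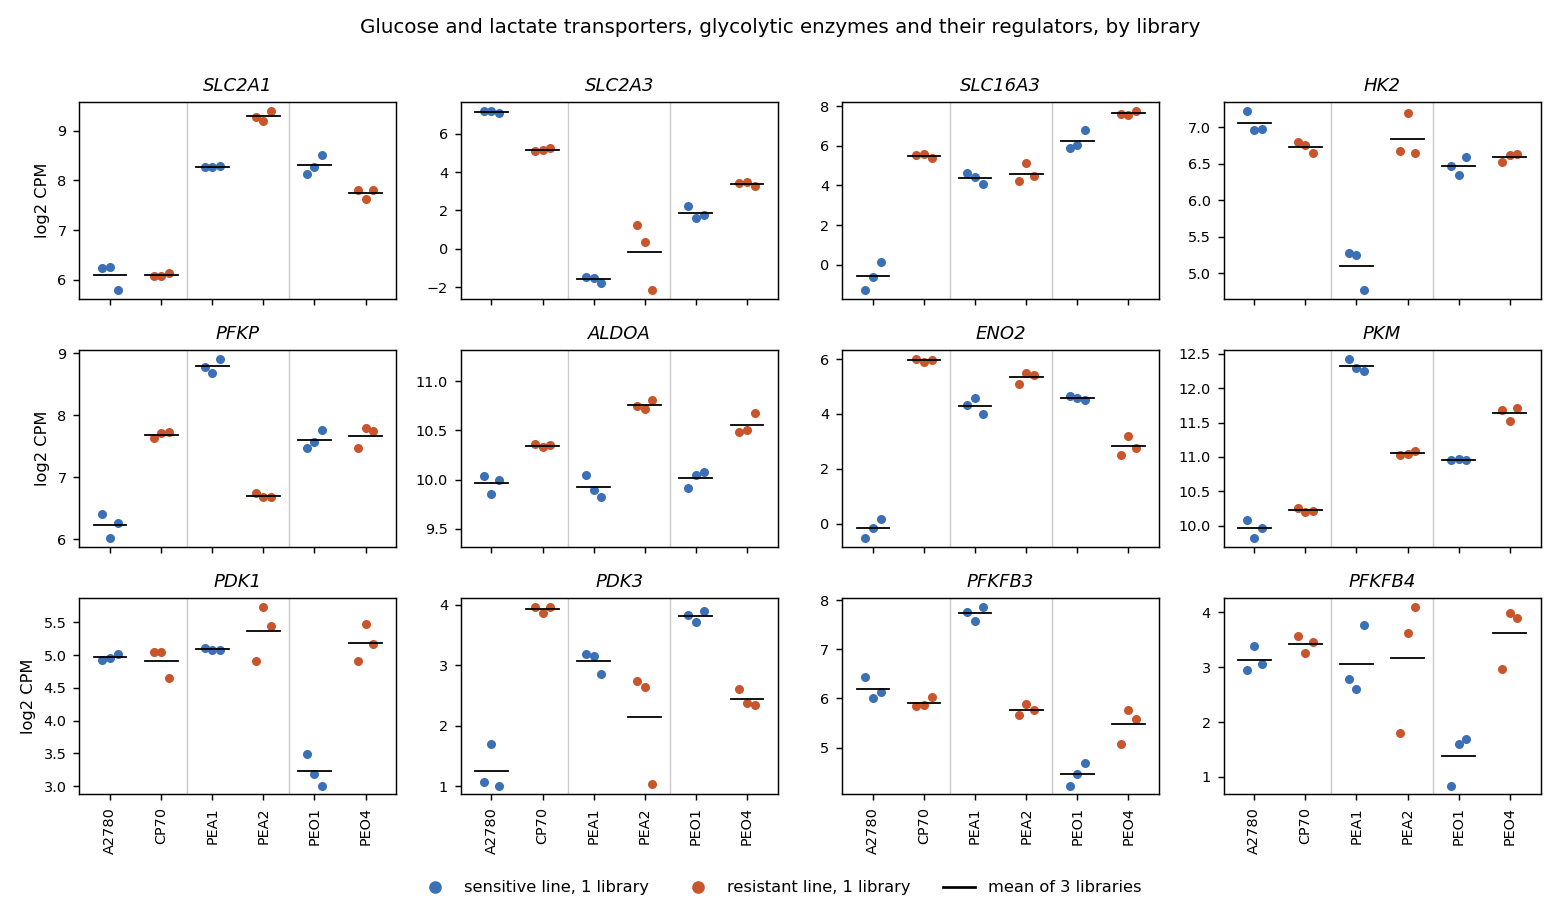
Level in log2 CPM (y axes, which differ between panels) of 12 transporters, glycolytic enzymes and regulators in each of the 18 libraries, grouped by line on the x axis, with a bar at the mean of 3. ALDOA lies higher in the resistant line of every pair, whereas ENO2 goes from -0.17 to 5.95 between A2780 and CP70 and from 4.58 to 2.82 between PEO1 and PEO4.

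Hexokinase traps glucose in the cell by phosphorylation, and HK2 is the isozyme that is typical of tumors and that HIF induces, whereas HK1 is widespread. HK2 was at 7.22, 6.96 and 6.98 log2 CPM in A2780 and 6.79, 6.75 and 6.64 in CP70. PEA1 had 5.28, 5.25 and 4.77 and PEA2 6.67, 7.19 and 6.65. PEO1 had 6.46, 6.34 and 6.59 and PEO4 6.52, 6.62 and 6.63. PEA1 was thus the only line below 6, and the rise in the PEA pair (1.74 ± 0.14, FDR = 3.25e-09) was the only one called, with FDR = 0.0846 and FDR = 0.525 in the A2780 and PEO pairs. HK2 shares sequence with the pseudogene HK2P1, which was counted separately at up to 25.3% of the reads of HK2 in a library, so its level is uncertain to that extent. HK1 fell in the PEA pair (-0.28 ± 0.09, FDR = 0.0137) and rose in the PEO pair (0.42 ± 0.09, FDR = 0.00134). The PEA call of HK1 was lost without PEA1 replicate 3 or PEA2 replicate 3 and with each pair fitted alone. HK2 minus HK1 went from -1.91 ± 0.36 (SD, n = 3) in PEA1 to 0.11 ± 0.30 in PEA2 on the log2 scale, and was between -0.24 and -0.35 on average in A2780 and CP70.

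Phosphofructokinase commits sugar to glycolysis and has a liver (PFKL), a muscle (PFKM) and a platelet (PFKP) form. PFKP was at 6.41, 6.03 and 6.26 log2 CPM in A2780 and 7.63, 7.71 and 7.74 in CP70, a log2FC of 1.46 ± 0.11 (FDR = 9.00e-10). It was at 8.79, 8.68 and 8.92 in PEA1 and 6.74, 6.69 and 6.69 in PEA2, a log2FC of -2.09 ± 0.11 (FDR = 3.46e-12). In PEO1 and PEO4 the values were 7.47, 7.57 and 7.76 and 7.47, 7.80 and 7.74, which overlapped (FDR = 0.643). PFKP thus moved in opposite directions in the A2780 and PEA pairs, with no overlap of lines in either.

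PFKL was at 6.45, 6.08 and 6.31 log2 CPM in A2780 and 6.26, 6.10 and 6.17 in CP70, which overlapped (FDR = 0.613). It rose from 6.01, 5.69 and 5.88 in PEA1 to 6.22, 6.82 and 6.79 in PEA2 (0.75 ± 0.15, FDR = 2.01e-04). It rose from 6.07, 6.16 and 6.44 in PEO1 to 7.31, 7.26 and 7.51 in PEO4 (1.14 ± 0.15, FDR = 3.25e-06), in both pairs without overlap. PFKM, which overlaps SENP1 on the opposite strand, fell in the A2780 pair (-0.51, FDR = 0.00428) and the PEA pair (-0.60, FDR = 6.95e-04) and rose in the PEO pair (0.55, FDR = 0.00243). On the log2 scale PFKP minus PFKL was 2.93 ± 0.14 (SD, n = 3) in PEA1 and 0.10 ± 0.37 in PEA2, but -0.05 ± 0.01 in A2780 and 1.51 ± 0.13 in CP70.

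Of the other upper enzymes, GPI, which turns glucose-6-phosphate into fructose-6-phosphate, rose slightly in the A2780 pair (0.29, FDR = 0.0314) and fell in the PEA pair (-0.68, FDR = 1.30e-05), and the former call was lost in 8 of 26 alternative fits, among them those without A2780 replicate 1 or 3 or any 1 CP70 library. TPI1, which interconverts the triose phosphates, rose in the PEA pair (0.97 ± 0.08, FDR = 4.32e-09) and had log2FC of -0.0004 and 0.18 in the other pairs. Its pseudogene TPI1P1 was counted at up to 89.0% of the reads of TPI1, so the level of TPI1 is uncertain, and it also overlaps SPSB2 on the opposite strand. ALDOC, the brain aldolase, was read 51, 57 and 35 times in A2780 and 154, 147 and 105 times in CP70, but at most 2 times in any library of the PEA and PEO lines. Its difference in the A2780 pair was 0.95 ± 0.54 and was not called in the main fit (FDR = 0.177), although the lines did not overlap. The rise in CP70 was called with each pair fitted alone, with voom weights and with 2 reads added (lowest FDR = 2.95e-04).

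Lower glycolysis earns ATP and ends in pyruvate and lactate, and its enzymes were among the most abundant mRNAs of the set. Per kilobase of the canonical transcript, GAPDH had the highest line mean of the 35 genes in CP70, PEA2, PEO1 and PEO4 (10.06, 10.82, 10.38 and 10.57 on the log2 CPM per kb scale), ENO1 in A2780 (9.81) and PKM in PEA1 (11.12). The 17 glycolytic enzymes together took 0.974% ± 0.041 (SD, n = 3) of reads in A2780, 1.11% ± 0.01 in CP70, 1.40% ± 0.05 in PEA1, 1.16% ± 0.01 in PEA2, 0.985% ± 0.020 in PEO1 and 1.26% ± 0.04 in PEO4. The share was higher in the resistant line of the A2780 and PEO pairs without overlap, also per scaled library size (the size behind the CPM values) and without PKM. The lower share in PEA2 rested on PKM, which took 0.530% ± 0.031 of reads in PEA1 and 0.185% ± 0.004 in PEA2: the other 16 enzymes took 0.868% ± 0.035 in PEA1 and 0.972% ± 0.011 in PEA2, without overlap. Per scaled library size, the 17 enzymes came to 1.35% ± 0.05 in PEA1 and 1.33% ± 0.02 in PEA2, which overlapped. These other ways of taking the share were added after the data were seen.

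**Figure D3:**
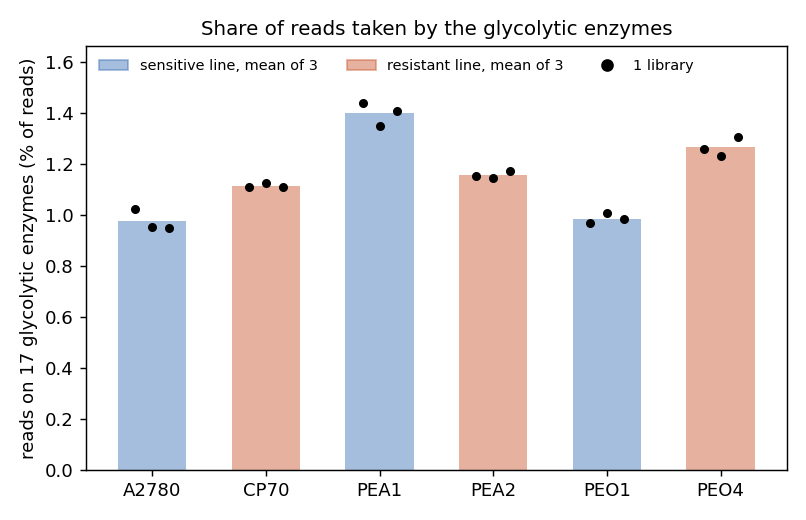
Share of each library's reads that fell on the 17 glycolytic enzymes (y axis, percent, from 0), with bars for the mean of a line and a point per library. PEA1 has the largest mean share (1.40%, of which PKM took 0.530%), and CP70 and PEO4 lie above A2780 and PEO1.

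PKM, pyruvate kinase, which forms pyruvate and ATP, was highest in PEA1. PKM was at 10.09, 9.83 and 9.97 log2 CPM in A2780 and 10.26, 10.20 and 10.21 in CP70 (0.26 ± 0.09, FDR = 0.0315). It was at 12.43, 12.29 and 12.25 in PEA1 and 11.03, 11.04 and 11.08 in PEA2, a log2FC of -1.27 ± 0.09 (FDR = 4.94e-10). It rose from 10.95, 10.97 and 10.96 in PEO1 to 11.68, 11.53 and 11.71 in PEO4 (0.68 ± 0.09, FDR = 7.27e-06). The 3 PEA1 libraries had more PKM than any other library, and no pair overlapped, although the small rise in CP70 lost its call in 7 of 26 alternative fits, among them those without A2780 replicate 2, A2780 replicate 3 or any 1 CP70 library. These values sum over the splice forms of the gene, so the M1 and M2 forms cannot be told apart.

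ENO2, the neuronal enolase, was among the genes that differed by more than 2 on the log2 scale between A2780 and CP70, though from at most 3 reads per A2780 library, so the size is imprecise. It lies at chr12:7022909-7032861 on GRCh37 and overlaps LRRC23 on the same strand. ENO2 had 2, 3 and 2 reads in A2780 (-0.52, -0.15 and 0.16 log2 CPM) and 394, 250 and 235 reads in CP70 (6.01, 5.89 and 5.95 log2 CPM). Summed over libraries and scaled, CP70 had 86.1 times the level of A2780 (95% counting interval 41.6 to 215), with a fitted log2FC of 6.12 ± 0.23 (FDR = 2.56e-14). ENO2 was at 4.32, 4.58 and 3.98 in PEA1 and 5.10, 5.50 and 5.42 in PEA2, a log2FC of 1.05 ± 0.23 (FDR = 6.14e-04). The PEO pair went the other way, from 4.64, 4.59 and 4.51 in PEO1 to 2.51, 3.20 and 2.74 in PEO4, a log2FC of -1.77 ± 0.23 (FDR = 4.03e-06). No pair overlapped. The abundant ENO1 differed by 0.11 to 0.19 between the lines of a pair and was not called, except that under quantile normalization it was lower in PEA2 (log2FC -0.36) and with voom weights it was higher in CP70 (FDR = 0.0335), and ENO2 minus ENO1 on the log2 scale moved from -10.81 ± 0.42 (SD, n = 3) in A2780 to -4.88 ± 0.05 in CP70 and from -6.21 ± 0.22 in PEO1 to -8.11 ± 0.39 in PEO4.

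GAPDH rose in the A2780 pair (0.50 ± 0.10, FDR = 6.24e-04) and the PEA pair (0.77 ± 0.10, FDR = 2.21e-06), and its log2FC was 0.19 in the PEO pair (FDR = 0.146). GAPDH is often used as a stable reference, and its line means here ranged from 9.93 to 11.19 log2 CPM. PGK1, which makes ATP in lower glycolysis, rose in the PEA (0.65, FDR = 3.87e-06) and PEO pairs (0.55, FDR = 5.19e-05). It overlaps ATP7A on the same strand and PGAM4 on the opposite strand. PGAM1 fell in the PEA pair (-0.99, FDR = 2.98e-08) and had log2FC of 0.06 and 0.13 in the others. LDHA, the form of lactate dehydrogenase that favours lactate formation, rose in the PEA pair (0.84 ± 0.08, FDR = 4.50e-08) and had log2FC of 0.10 and 0.11 in the A2780 and PEO pairs. LDHB fell in the A2780 pair (-0.48, FDR = 1.65e-04) and rose in the PEA pair (0.31, FDR = 0.00522), the latter not under quantile normalization (log2FC 0.03). LDHB minus LDHA on the log2 scale was highest in A2780, at 0.11 ± 0.18 (SD, n = 3), and lowest in PEA2, at -1.78 ± 0.12.

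**Figure D4:**
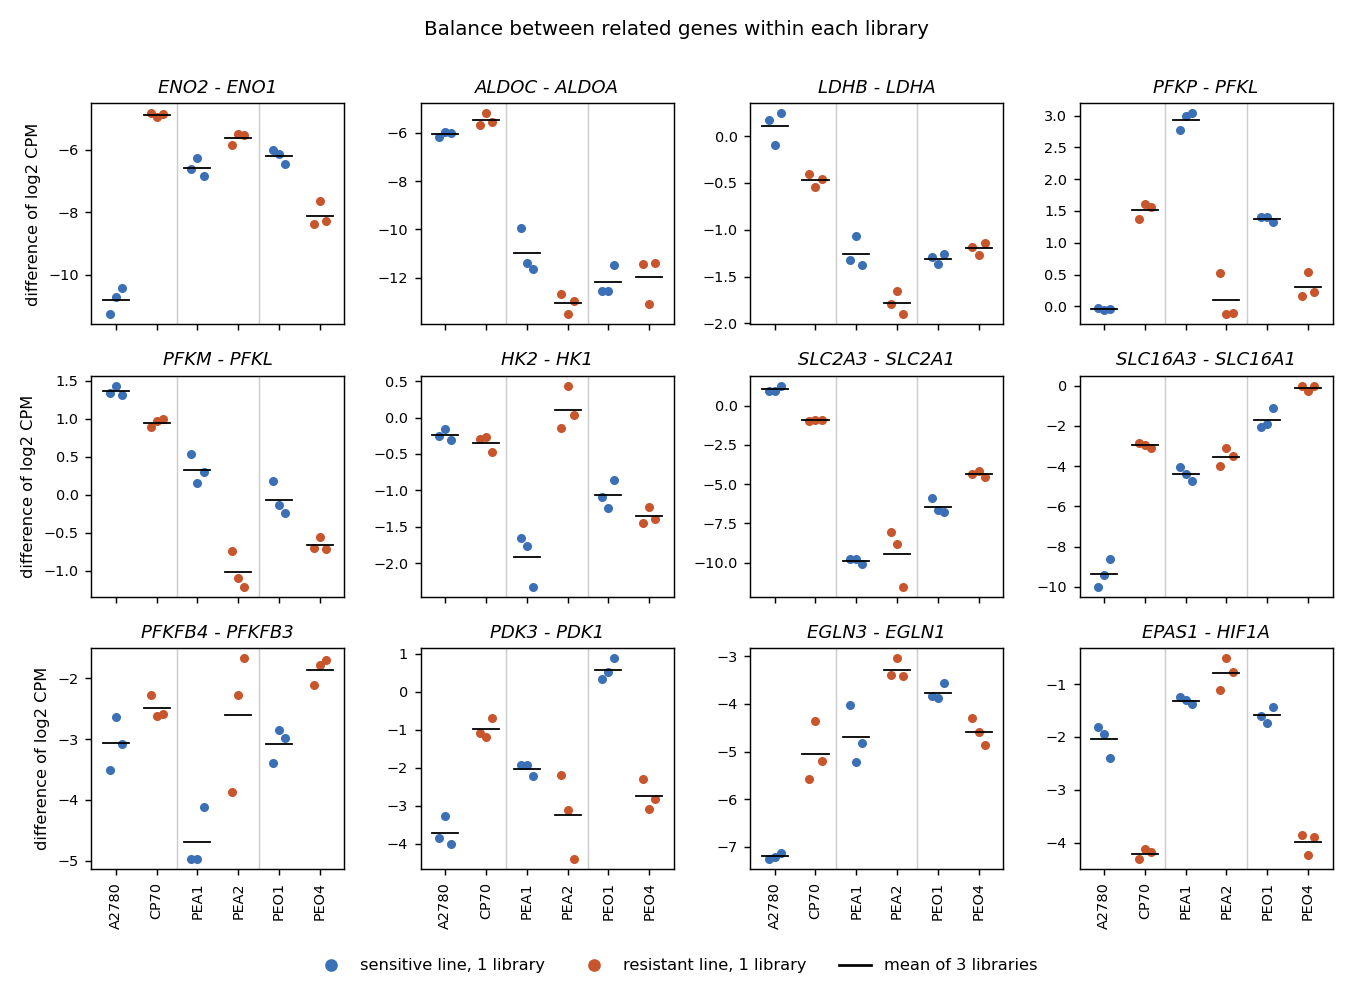
Difference in log2 CPM between 2 related genes in the same library (y axes, which differ between panels), for 12 gene pairs over the 6 lines, with a bar at the mean of 3 libraries. ENO2 relative to ENO1 is lowest in A2780 (-10.81) and highest in CP70 (-4.88), and EPAS1 relative to HIF1A is lowest in CP70 (-4.20) and PEO4 (-3.99).

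All 4 flux regulators were called between PEO1 and PEO4, of which 3 rose and PDK3 fell. Of all genes, 19.6% rose and 21.9% fell in this pair. PDK1 and PDK3 are kinases that shut pyruvate dehydrogenase and so keep pyruvate out of the mitochondria. PDK1 was at 4.92, 4.96 and 5.02 log2 CPM in A2780 and 5.04, 5.05 and 4.65 in CP70. It was at 5.11, 5.08 and 5.07 in PEA1 and 4.91, 5.74 and 5.45 in PEA2. It rose from 3.49, 3.19 and 3.01 in PEO1 to 4.90, 5.47 and 5.17 in PEO4. PEO1 was the low line, below all others, and the rise of 1.95 ± 0.20 (FDR = 1.56e-07) was the only one called for PDK1, with FDR = 0.862 in the A2780 pair and FDR = 0.23 in the PEA pair.

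PDK3 had the reverse pattern in the PEO pair. PDK3 was at 1.07, 1.69 and 1.01 log2 CPM in A2780 and 3.97, 3.87 and 3.97 in CP70, a log2FC of 2.68 ± 0.35 (FDR = 3.43e-06). It was at 3.18, 3.15 and 2.85 in PEA1 and 2.74, 2.63 and 1.04 in PEA2, a log2FC of -0.93 ± 0.35 (FDR = 0.0291) that depended on PEA2 replicate 3, without which it was -0.38 and not called. It fell from 3.83, 3.71 and 3.89 in PEO1 to 2.60, 2.37 and 2.34 in PEO4 (log2FC -1.37 ± 0.35, FDR = 0.00384). PDK3 minus PDK1 was 0.58 ± 0.28 (SD, n = 3) in PEO1 and below 0 in each of the other lines, at -2.74 ± 0.40 in PEO4. PDK3 was thus higher in the resistant line of the A2780 pair and lower in that of both other pairs. Its reads were few in A2780 (7, 12 and 4), PEA1 (12, 12 and 12), PEA2 (12, 21 and 4) and PEO4 (17, 15 and 12). Among the alternative fits, the log2FC of the A2780 pair was as low as 1.76. The PEA call was also lost without PEA1 replicate 1 or PEA1 replicate 2 and with each pair fitted alone.

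PFKFB3 and PFKFB4 make and break fructose-2,6-bisphosphate, the activator of phosphofructokinase, and PFKFB3 acts almost wholly as the kinase. PFKFB3 was at 6.45, 6.01 and 6.13 log2 CPM in A2780 and 5.84, 5.87 and 6.03 in CP70, which overlapped (FDR = 0.179). It fell from 7.76, 7.57 and 7.87 in PEA1 to 5.66, 5.88 and 5.77 in PEA2 (-1.96 ± 0.16, FDR = 2.44e-09). It rose from 4.23, 4.46 and 4.68 in PEO1 to 5.08, 5.76 and 5.59 in PEO4 (1.02 ± 0.16, FDR = 3.50e-05). PEA1 was the highest and PEO1 the lowest of the 6 lines for this gene.

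PFKFB4 was scarcer. PFKFB4 was at 2.94, 3.39 and 3.05 log2 CPM in A2780 and 3.57, 3.26 and 3.45 in CP70. The PEA1 libraries had 2.79, 2.60 and 3.76 and the PEA2 libraries 1.79, 3.61 and 4.10, a wide spread with overlap. PFKFB4 rose from 0.84, 1.60 and 1.70 in PEO1 to 2.96, 3.99 and 3.89 in PEO4 (2.23 ± 0.46, FDR = 6.13e-04), where PEO1 had 5, 8 and 21 reads and PEO4 22, 47 and 36. The lines of the PEO pair were separate for this gene, and no other pair was called (FDR = 0.638 and FDR = 0.833).

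Of the 6 genes known to be induced by hypoxia, 5 rose in the PEO pair and none fell. In the PEA pair 3 rose and CA12 fell, and in the A2780 pair BNIP3 and ANGPTL4 rose and none fell. Of all genes, 19.6% rose and 21.9% fell in the PEO pair. The shares were 32.5% and 29.4% in the PEA pair and 22.2% and 17.7% in the A2780 pair. VEGFA encodes the main growth factor for blood vessels and is a standard HIF target. VEGFA was at 6.05, 5.77 and 5.74 log2 CPM in A2780 and 5.73, 5.61 and 5.54 in CP70 (-0.23 ± 0.13, FDR = 0.175). It rose from 6.69, 6.64 and 6.48 in PEA1 to 8.71, 8.19 and 8.55 in PEA2 (1.88 ± 0.13, FDR = 1.82e-10). It rose from 4.26, 4.29 and 4.19 in PEO1 to 6.59, 6.92 and 6.72 in PEO4 (2.50 ± 0.13, FDR = 1.41e-11), that is 5.65-fold. The 2 patient-derived pairs thus shared a rise that the A2780 pair did not show, and limma's test of the difference between pairs was called for A2780 minus PEA (-2.10 ± 0.18, FDR = 7.66e-09) and for A2780 minus PEO (-2.73 ± 0.18, FDR = 2.37e-10).

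ANGPTL4, a secreted inhibitor of lipoprotein lipase that HIF and PPAR factors induce, was low in A2780, CP70 and PEA1. ANGPTL4 was at 1.25, 0.75 and 1.75 log2 CPM in A2780 (8, 6 and 7 reads) and 2.37, 2.48 and 2.80 in CP70 (31, 23 and 26 reads). It was at 0.86, 1.97 and 3.06 in PEA1 (2, 5 and 14 reads) and 4.78, 5.57 and 5.42 in PEA2. It was at 3.86, 3.30 and 4.21 in PEO1 and 4.85, 5.32 and 5.17 in PEO4. No pair overlapped, although the PEA1 libraries differed among themselves by over 2 log2 units. The rise was 1.30 ± 0.41 in the A2780 pair (FDR = 0.0162), 3.29 ± 0.41 in the PEA pair (FDR = 9.69e-07) and 1.32 ± 0.41 in the PEO pair (FDR = 0.0143).

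BNIP3 directs mitochondria to autophagy under hypoxia. BNIP3 was at 4.48, 4.71 and 4.14 log2 CPM in A2780 and 5.60, 5.48 and 5.59 in CP70 (1.11 ± 0.17, FDR = 1.59e-05). It was at 5.38, 5.89 and 5.30 in PEA1 and 6.08, 5.96 and 5.91 in PEA2 (0.46 ± 0.17, FDR = 0.0227). It was at 4.13, 4.06 and 4.02 in PEO1 and 4.34, 4.64 and 4.59 in PEO4 (0.46 ± 0.17, FDR = 0.0334). The resistant libraries were above the sensitive ones in each pair. The pseudogene BNIP3P1 was counted at up to 89.7% of the reads of BNIP3, so the level of BNIP3 is uncertain.

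CA12, a membrane carbonic anhydrase that buffers acid outside the cell, had the largest fall of the set. CA12 was at 4.91, 5.24 and 5.24 log2 CPM in A2780 and 5.44, 5.78 and 5.71 in CP70 (0.51 ± 0.28, FDR = 0.158). It fell from 9.24, 9.05 and 9.25 in PEA1 (831, 741 and 1059 reads) to 3.52, 2.93 and 3.36 in PEA2 (21, 26 and 22 reads), with a log2FC of -5.91 ± 0.28 (FDR = 8.19e-13). It was at 1.78, 2.27 and 2.61 in PEO1 and 1.72, 3.20 and 2.56 in PEO4 (0.27 ± 0.28, FDR = 0.473), which overlapped. PEA1 alone was above 9, and the fall in the PEA pair was 60.0-fold on the fitted scale.

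ADM, the vasodilator peptide adrenomedullin, was at 4.44, 3.52 and 4.03 log2 CPM in A2780 and 4.80, 4.45 and 4.44 in CP70. It was at 3.82, 3.03 and 3.16 in PEA1 and 2.85, 3.68 and 3.36 in PEA2. It rose from 3.22, 2.65 and 2.93 in PEO1 to 4.01, 4.05 and 4.33 in PEO4 (1.20 ± 0.28, FDR = 0.00183). The PEO pair was the only one called, with 0.57 and FDR = 0.12 in the A2780 pair, where the highest A2780 and the lowest CP70 library were both at 4.44. KDM3A, a histone demethylase that HIF induces, rose in the PEO pair (0.44 ± 0.13, FDR = 0.012, lost without PEO1 replicate 2 or PEO4 replicate 2) and had log2FC of 0.03 and 0.16 in the A2780 and PEA pairs.

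**Figure D5:**
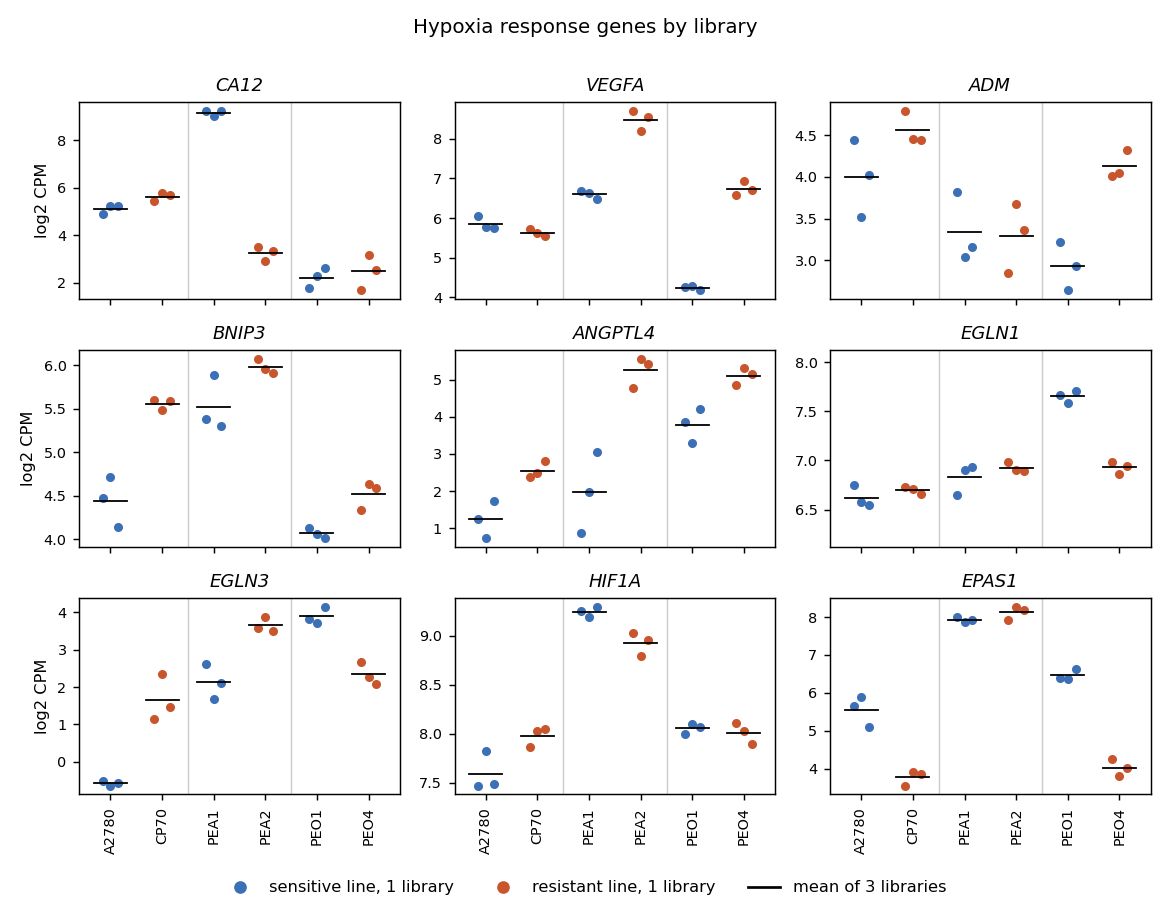
Level in log2 CPM (y axes, which differ between panels) of 9 hypoxia response genes in each of the 18 libraries, grouped by line on the x axis, with a bar at the mean of 3. VEGFA is higher in PEA2 and PEO4 than in PEA1 and PEO1 (log2FC 1.88 and 2.50), while EPAS1 is lower in CP70 and PEO4 than in A2780 and PEO1 (log2FC -1.77 and -2.44).

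The oxygen sensor EGLN3, which HIF itself induces, had opposite directions among the pairs. EGLN3 had 2, 2 and 1 reads in A2780 (-0.52, -0.63 and -0.58 log2 CPM) and 13, 21 and 10 in CP70 (1.15, 2.35 and 1.47 log2 CPM), a summed and scaled level 6.03 times as high (95% counting interval 2.40 to 19.5), with a fitted log2FC of 2.23 ± 0.34 (FDR = 2.21e-05). It rose from 2.63, 1.68 and 2.11 in PEA1 to 3.59, 3.86 and 3.49 in PEA2 (1.51 ± 0.34, FDR = 7.72e-04). It fell from 3.83, 3.71 and 4.15 in PEO1 to 2.68, 2.27 and 2.09 in PEO4 (-1.55 ± 0.34, FDR = 0.00107). The lines were separate in each pair, and the annotation places SPTSSA on the same strand within the locus of EGLN3. EGLN1, the main sensor, also fell in the PEO pair (-0.72 ± 0.09, FDR = 1.88e-06) and differed by 0.08 and 0.09 in the A2780 and PEA pairs, where it was not called. Both EGLN1 and EGLN3 were lower in PEO4 than in PEO1. Any relation of these mRNA levels to the hypoxia-induced genes was not tested.

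Of the HIF alpha subunits, EPAS1 (HIF-2α) fell in 2 pairs, while the log2FC of HIF1A (HIF-1α) lay between -0.32 and 0.39 over the 3 pairs. EPAS1 fell from 5.66, 5.89 and 5.10 log2 CPM in A2780 to 3.55, 3.91 and 3.87 in CP70 (-1.77 ± 0.17, FDR = 4.06e-08). It was at 8.01, 7.88 and 7.91 in PEA1 and 7.92, 8.28 and 8.19 in PEA2, which overlapped (FDR = 0.33). It fell from 6.40, 6.37 and 6.62 in PEO1 to 4.26, 3.79 and 4.0 in PEO4 (-2.44 ± 0.17, FDR = 8.56e-10), a 5.44-fold difference. HIF1A rose in the A2780 pair (0.39 ± 0.10, FDR = 0.00369), fell in the PEA pair (-0.32 ± 0.10, FDR = 0.00829) and was not called in the PEO pair (-0.04, FDR = 0.753). EPAS1 minus HIF1A on the log2 scale was -2.05 ± 0.30 (SD, n = 3) in A2780, -4.20 ± 0.10 in CP70, -1.31 ± 0.07 in PEA1, -0.80 ± 0.30 in PEA2, -1.59 ± 0.15 in PEO1 and -3.99 ± 0.21 in PEO4.

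The pairs were also compared with each other by testing the difference of their log2FC, which was called at an FDR below 0.05 and a size above 2. This was met by 9 of the 35 genes between the A2780 and PEA pairs (20.4% of all genes), by 6 between the A2780 and PEO pairs (14.9%) and by 7 between the PEA and PEO pairs (19.4%). ENO2 was called in each of the 3 comparisons, with a difference of 5.07 ± 0.33 for A2780 minus PEA, 7.89 ± 0.33 for A2780 minus PEO and 2.81 ± 0.33 for PEA minus PEO. Each pair enters 2 of these comparisons, so they are not independent of each other.

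Another 70 genes of the same and neighbouring pathways were tested in the same fit. Their counts, here and for the further lists below, are to be read beside the shares of all genes. These were 22.2% higher and 17.7% lower in the A2780 pair, 32.5% and 29.4% in the PEA pair and 19.6% and 21.9% in the PEO pair. Several of the counts are near these shares, and no list was tested as a set. Of 26 further HIF target genes, 9 rose and 5 fell in the A2780 pair, 15 rose and 3 fell in the PEA pair and 13 rose and 3 fell in the PEO pair, with a median log2FC of -0.06, 0.72 and 0.48. BHLHE40, a repressor of transcription, and P4HA2, a collagen prolyl hydroxylase, were among those that rose in all 3 pairs, and are named here after their values were seen. NDRG1, a stress-induced gene, had the largest fall of these genes in the A2780 pair (log2FC -4.31 ± 0.46, FDR = 1.85e-07), from 3.31, 3.27 and 2.70 log2 CPM in A2780 to -0.44, -3.08 and -0.12 in CP70, while it rose in the PEA pair (log2FC 1.61 ± 0.46, FDR = 0.00481). TMEM45A rose most in the PEO pair (log2FC 4.41 ± 0.58, FDR = 4.42e-06).

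Among 6 partners and inhibitors of HIF, ARNT2, a relative of ARNT expressed mainly in nerve and kidney, rose in the A2780 pair (log2FC 4.25 ± 0.26, FDR = 5.05e-11) and fell in the PEA pair (log2FC -4.74 ± 0.26, FDR = 8.54e-12). Its A2780 libraries were at -1.25, -0.63 and -0.58 log2 CPM, at or under 3 reads, and its CP70 libraries at 3.72, 3.07 and 3.48. CITED2, which competes with HIF for the coactivator p300, fell in the A2780 pair (log2FC -2.53 ± 0.17, FDR = 2.52e-10) and the PEA pair (log2FC -1.12 ± 0.17, FDR = 1.35e-05) and rose in the PEO pair (log2FC 2.05 ± 0.17, FDR = 1.29e-08). ARNT itself fell in the A2780 pair (log2FC -0.61 ± 0.11, FDR = 1.10e-04), with log2FC of -0.20 and 0.05 in the PEA and PEO pairs. HIF1AN, the asparaginyl hydroxylase that blocks HIF, fell in the A2780 pair (log2FC -0.42 ± 0.10, FDR = 0.00235), with 0.09 and 0.01 in the others. VHL, which tags HIF for destruction, fell in the A2780 (log2FC -0.68 ± 0.15, FDR = 0.00139) and PEO pairs (log2FC -0.43 ± 0.15, FDR = 0.0329) and rose in the PEA pair (log2FC 0.71 ± 0.15, FDR = 5.24e-04). EGLN2, the third prolyl hydroxylase, fell in the PEA pair (log2FC -0.92 ± 0.32, FDR = 0.0187).

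TXNIP, which limits glucose uptake and is induced by glucose, rose in all 3 pairs (log2FC 1.49 ± 0.15, FDR = 5.01e-08 for A2780, log2FC 3.51 ± 0.15, FDR = 1.34e-13 for PEA and log2FC 2.31 ± 0.15, FDR = 2.25e-10 for PEO). Its libraries were at 4.37, 4.13 and 4.13 log2 CPM in PEA1 and 7.67, 7.86 and 7.63 in PEA2, and its relative ARRDC4 rose in the PEA pair (log2FC 3.80 ± 0.54, FDR = 5.27e-06). MYC, an activator of glycolytic genes, was called in no pair (log2FC -0.11, 0.16 and 0.19). Over all 5 glucose-sensing genes, 1 rose and 0 fell in the A2780 pair, 3 rose and 1 fell in the PEA pair, and 1 rose and 2 fell in the PEO pair.

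Among 11 other glycolytic isozymes and transporters, 2 rose and 3 fell in the A2780 pair, 3 and 3 in the PEA pair and 3 and 4 in the PEO pair. SLC16A7 (MCT2), a high-affinity importer of lactate and pyruvate, fell in the PEA pair (log2FC -3.82 ± 0.36, FDR = 1.96e-08) and rose in the PEO pair (log2FC 3.47 ± 0.36, FDR = 2.06e-07), and SLC2A6 fell in the PEO pair (log2FC -2.75 ± 0.42, FDR = 2.46e-05). Of 11 genes for the entry of pyruvate into mitochondria, 1 rose and 4 fell in the A2780 pair, 3 and 3 in the PEA pair and 0 and 4 in the PEO pair. Of 8 genes of the pentose phosphate pathway, 3 rose and 2 fell in the A2780 pair, 5 and 1 in the PEA pair and 3 and 2 in the PEO pair. The gluconeogenic enzyme FBP1, which opposes phosphofructokinase, fell in the PEO pair (log2FC -2.85 ± 0.39, FDR = 7.28e-06), from 5.12, 5.43 and 5.34 log2 CPM in PEO1 to 2.75, 2.37 and 2.22 in PEO4, and was at or under 3 reads in A2780, CP70, PEA1 and PEA2. Of the 3 gluconeogenic genes, FBP1 fell and G6PC3 rose in the PEO pair, PCK2 rose and G6PC3 fell in the PEA pair, and none was called in the A2780 pair; PCK2 and G6PC3 are named after their values were seen.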

How the data were processed

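RNA-seq values of 18 libraries (6 cell lines, 3 replicates each) were analysed. The authors deposited log2 CPM for 12853 genes: per the labels, reads were processed with Bowtie2, featureCounts and limma on hg19 (versions not given), and reads were assigned to known genes; 0.5 reads were added to each count and library sizes were scaled. Each column maps to 1 labelled library and no column of values was left out. The rule behind the 12853 genes is not given in the sources used here. Whole reads were recovered from 100% of values (tolerance 0.01 reads) and gave depths of 1344098 to 7067336 reads per library; a count of 3 reads served as the detection floor, and intervals cover counting error only.

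The deposited log2 values were fitted with limma 3.58.1 (R 4.3.3; moderated test with trend, 1 mean per line, all 18 libraries), with Benjamini-Hochberg adjustment over all 12853 genes. A gene was called at an FDR below 0.05, and changes above 2 on the log2 scale were counted separately. Pairs were compared by the contrast of their differences, and a model with pair and sensitivity as terms covered all pairs. The script was tested on simulated data. Per-library values are given for genes of the set with an FDR below 0.05, a log2FC above 1 in size and lines that do not overlap in at least 1 pair, and for ALDOA, chosen after its values were seen; of the other pathway genes, the 2 highest and 2 lowest per pair are named, with ARNT, HIF1AN, VHL, EGLN2, TXNIP and MYC; 1 gene that this rule names is not reported here. The genes of the set and the further lists were chosen with earlier results of these data known. Gene positions are from GENCODE on GRCh37. Alternatives changed the fit, scaling, filter, added reads, variance model, pairing and threshold, and left out each library in turn.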

Additional observations from a re-analysis of the deposited data

Results flagged for a closer look

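The change between sensitive and resistant line differed between pairs for 13 genes of the set, by limma's test of the difference of 2 log2FC (FDR below 0.05 over all 12853 genes, size above 2). No explanation was tested.

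For the A2780 pair minus the PEA pair, CA12 differed by 6.42 ± 0.39 (SE, FDR = 5.36e-11), since it fell in the PEA pair and was not called in the A2780 pair. SLC16A3 differed by 5.86 ± 0.42 (FDR = 5.49e-10) and ENO2 by 5.07 ± 0.33 (FDR = 1.17e-10); both had at most 3 reads in each A2780 library, so these sizes depend on the reads added to the counts. PDK3 differed by 3.60 ± 0.50 and PFKP by 3.54 ± 0.15, with opposite directions in the 2 pairs. SLC2A3 differed by -3.39 ± 0.74 and ALDOC by 2.17 ± 0.77, and both rest on PEA libraries with few or 0 reads. VEGFA differed by -2.10 ± 0.18 and HK2 by -2.06 ± 0.20, having risen in the PEA pair.

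For the A2780 pair minus the PEO pair, the differences were 7.89 ± 0.33 for ENO2 (FDR = 2.02e-13), 4.65 ± 0.42 for SLC16A3, 4.05 ± 0.50 for PDK3, 3.77 ± 0.48 for EGLN3, -3.50 ± 0.74 for SLC2A3 and -2.73 ± 0.18 for VEGFA. ENO2, PDK3 and EGLN3 were higher in CP70 than in A2780 and lower in PEO4 than in PEO1, and SLC2A3 was the reverse. EGLN3 also had at most 3 reads in each A2780 library.

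For the PEA pair minus the PEO pair, the differences were -6.18 ± 0.39 for CA12 (FDR = 1.18e-10), 3.05 ± 0.48 for EGLN3, -2.98 ± 0.23 for PFKFB3, 2.81 ± 0.33 for ENO2, 2.64 ± 0.24 for EPAS1, -2.16 ± 0.15 for PFKP and -2.11 ± 0.66 for PFKFB4. EGLN3 and ENO2 rose in the PEA pair and fell in the PEO pair, and PFKFB3 was the reverse.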

How the results depend on the processing

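Of 105 results for a gene in a pair, 65 were called; 53 of these stayed called in the same direction under all 26 alternatives and 12 were lost under at least 1. Another 13 were gained under at least 1, and 1 reversed: ENO1 in the PEA pair, at -0.36 under quantile normalization. Over all genes, 22.2% were called higher and 17.7% lower in the A2780 pair. The shares were 32.5% and 29.4% in the PEA pair and 19.6% and 21.9% in the PEO pair. How many calls over all genes were kept under the alternatives was not counted. The counts of genes higher or lower in each pair stayed within 1.5 times the reported count under every alternative fit with the same threshold. Requiring a log2FC above 1 left 7 higher and 2 lower in the A2780 pair, 7 and 4 (PEA), 9 and 4 (PEO), and 3 and 1 in the model over all pairs. The shares of all genes at this threshold were not taken, so these counts are not read as a trait of the set. Under quantile normalization, the count past 2 on the log2 scale was 2 (A2780 pair) and 7 (PEO pair). The same count over all genes went from 1165 to 930 in the A2780 pair and from 800 to 1054 in the PEO pair. The median log2FC of the A2780 pair was 0.0492 with libraries centred on their medians. Centring or quantile normalization moved the median over all genes in the PEA pair from 0.01 to -0.10. The share of reads on glycolytic enzymes, PEA2 minus PEA1, was -0.2410 percentage points, 0.1043 without PKM and -0.0264 per scaled library size.

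Leaving out each library in turn, the count past 2 in the PEA pair was 3 to 5 (5 without PEA2 replicate 2). The median log2FC was 0.073 to 0.1394 in the A2780 pair (lowest without CP70 replicate 2, highest without A2780 replicate 1) and, for the PEO pair, 0.2147 to 0.4023 (0.3751 without PEO1 replicate 3, 0.4023 without PEO4 replicate 1); in the PEA pair, where it stayed within the spread between replicates, it was 0.0938 to 0.3251.

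Replicate numbers are shared between lines. Deviations of same-numbered libraries from their line means correlated by -0.18 to 0.22 over 6426 genes, and in no pair were all above 0.1. With means of only 3 libraries, these correlations cannot exclude a shared batch. The main fit treats same-numbered libraries as unpaired. With the replicate block, the model over all pairs called 5 genes of the set higher. Over all genes it called 530 higher, against 1604 without the block. The block counts of the set in single pairs were 10 and 6 (A2780), 15 and 12 (PEA) and 15 and 6 (PEO). Over all 12853 genes they were 2776 and 2204 (A2780), 4159 and 3740 (PEA) and 2470 and 2727 (PEO). With 1 difference per pair, limma called 0 genes of the set higher and 0 lower, with 1 and 0 at an unadjusted p below 0.05. Low depth limits SLC2A3, ALDOC, SLC16A3, ENO2 and EGLN3 in lines with at most 3 reads per library.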
